A study of Mus musculus with 12 samples.

Results

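Ribosome footprints were compared between mouse small intestine organoids that had lost both copies of Eif4g2 (genotype Eif4g2-/-, called KO here) and organoids with 1 copy left (Eif4g2+/-, called Het). The comparison used the 4 ribosome profiling libraries of these genotypes among the 12 libraries of the study, 2 for each genotype. The labels number the organoids, and the 2 of a genotype are told apart here as the lower-numbered and the higher-numbered; values are given in that order. The other ribosome profiling libraries came from 2 Eif4g2+/+ organoids (WT), and 6 RNA-seq libraries came from the same 6 numbered organoids. Every group, WT included, was grown for 3 days in basal medium with Noggin, R-spondin-1 and an epithelial growth factor, and every group was given 0.5 µM 4-OHT (4-hydroxytamoxifen, the usual inducer of Cre fused to an oestrogen receptor domain) for 24 hours. The allele design, any Cre driver and the age of the mice are not given in the sources used here. The labels do not say whether organoids of a genotype came from separate animals, so p-values measure the spread between these numbered organoids.

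Eif4g2 encodes a scaffold protein of translation initiation, also called DAP5 or NAT1. It resembles the main eIF4G scaffolds in binding eIF3 and eIF4A, but it lacks the part that binds the cap-binding protein eIF4E, and it is known for supporting initiation on a subset of mRNAs. Ribosome profiling digests RNA that is not covered by ribosomes and sequences the protected fragments (footprints), so a footprint count follows both the amount of an mRNA and the number of ribosomes on it. Organoids of the small intestine hold stem cells together with absorptive and secretory cells, and a difference between organoids can therefore also follow from fewer cells of a type, which cannot be told apart here from less RNA per cell.

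The unit of measurement was a set of transcript rows with the same counts in all 12 libraries, which joins isoforms that share every counted read. It can also join unrelated sparse rows whose few counts are equal. The largest unit held 277 rows with 1 count in all, and 993 units spanned more than 50 rows of the deposited order. Of 278268 transcript rows, 66316 carried a length above 0, and 63239 of these had a count in any library. They formed 45864 units, of which 44937 had a footprint and 33221 passed the filter on low counts and were tested. The length given with each row is not defined by the submitters. It is taken here as the coding length in codons, the scale on which it behaves. Transcript IDs were not paired with gene symbols in the sources used here, so the results are described by length, abundance and size of change, 4 units are named by ID, and neither the level of Eif4g2 nor cell type markers were checked.

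Both KO libraries were deeper than both Het libraries, so depth and genotype cannot be told apart in this comparison. Footprint totals over units were 22546451 and 15883860 in KO, 9613588 and 13298316 in Het, and 13527369 and 4828528 in WT. Between 39218 and 42074 units had a footprint in a library, and the 10 most counted units held 3.74% to 4.64% of counts. KO libraries differed from Het libraries more than libraries of a genotype differed from each other. The SD over tested units of the log2 ratio of 2 libraries, taken on log2(CPM + 0.5) with CPM as counts per 1000000 counts of the library, was 0.22 within KO, 0.29 within Het and 0.36 within WT. Between a KO and a Het library it was 0.45 to 0.46.

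With the second Eif4g2 copy lost, footprints changed in 7870 of 33221 units (23.7% of units tested). Of these, 3453 (10.4% of units tested) rose and 4417 (13.3%) fell in KO relative to Het, by edgeR's quasi-likelihood test with Benjamini-Hochberg adjusted p under 0.05. Changes are relative to scaled library totals, on which the median log2 change over all units tested was 0.01. The median size of change over all called units, gains and losses pooled, was 0.55 on the log2 scale. The median was 0.46 for gains and -0.67 for losses. The middle 80% of all log2 changes lay between -0.62 and 0.46, so the spread reached further down than up. Both KO libraries stood above both Het libraries in 10238 units (30.8%) and below them in 10271 (30.9%), and 12712 units (38.3%) overlapped. Of the called units, 7854 did not overlap.

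Neighbouring units can be isoforms of the same locus that count the same reads, which could not be checked without gene symbols. Joining neighbouring called units within 15 rows of the deposited order, a step chosen after the data were seen, left 2603 runs, the largest of 28 units. A run is set by position alone, so it can also join different genes. Testing near-identical neighbours as 1 unit gave 2039 higher and 2648 lower. The number of calls leaned on each library: 4395 units were called without the lower-numbered KO library, 4258 of them among the 7870, and 5152 without the higher-numbered. Without the lower-numbered and without the higher-numbered Het library the numbers were 5507 and 4285. DESeq2 called 1037 units higher and 2019 lower, all 3056 of them among the 7870.

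Loss of the first copy gave few calls in the same fit. Het against WT gave 321 called units (0.966% of units tested), 161 higher and 160 lower in Het, with 3806 units at an unadjusted p under 0.05. KO against Het had 11606 units at that level. KO against WT gave 8518 called units (25.6%), 3797 higher and 4721 lower. The 3 comparisons share libraries, so their values are set side by side and not compared by overlap. The units that rose in KO against Het had a median log2 change of 0.46 in that comparison, -0.03 in Het against WT and 0.43 in KO against WT. The units that fell had medians of -0.67, 0.02 and -0.63.

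The size of change separated losses from gains. Small changes were more often gains: among called units with an absolute log2 change under 0.5, 1944 rose and 1558 fell, so 44.5% were losses. From 0.5 upwards the order turned, with 1509 gains and 2859 losses. With a log2 change of 1 or more in size, 383 units (1.15% of units tested) rose and 1304 (3.93%) fell, 3.4 losses for each gain. At 2 or more, 71 rose and 234 fell, and at 3 or more, 9 rose and 57 fell. Counted in runs of neighbouring units, gains and losses numbered 193 and 552 at 1 or more, 33 and 134 at 2 or more, and 5 and 34 at 3 or more.

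**Figure D1:**
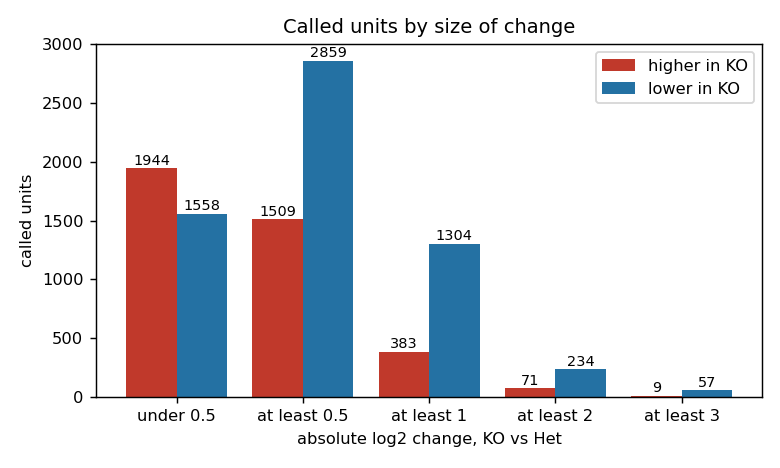
Number of called units (vertical axis) by absolute log2 change between KO and Het (horizontal axis), for units higher in KO (red) and lower in KO (blue); the classes from 0.5 upwards are cumulative. Gains outnumber losses only under 0.5 (1944 against 1558), and from 1 upwards losses number 1304 against 383 gains.

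The excess of large losses held in number under each alternative run, from 2.74 losses for each gain with upper-quartile scaling to 4.85 where every library had at least 10 counts. The split of all calls did not: upper-quartile scaling, which raised the median log2 change to 0.04, gave 4315 gains and 3952 losses. Large changes lay mostly in thinly covered units. The median abundance, as the mean CPM over the 6 ribosome profiling libraries, was 1.89 for gains and 3.07 for losses of at least 1, against 28.9 and 28.6 for called changes under 0.5. A low unit can pass the filter through the genotype where it is high. With at least 10 counts in every library, 162 units rose and 786 fell by 1 or more.

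**Figure D2:**
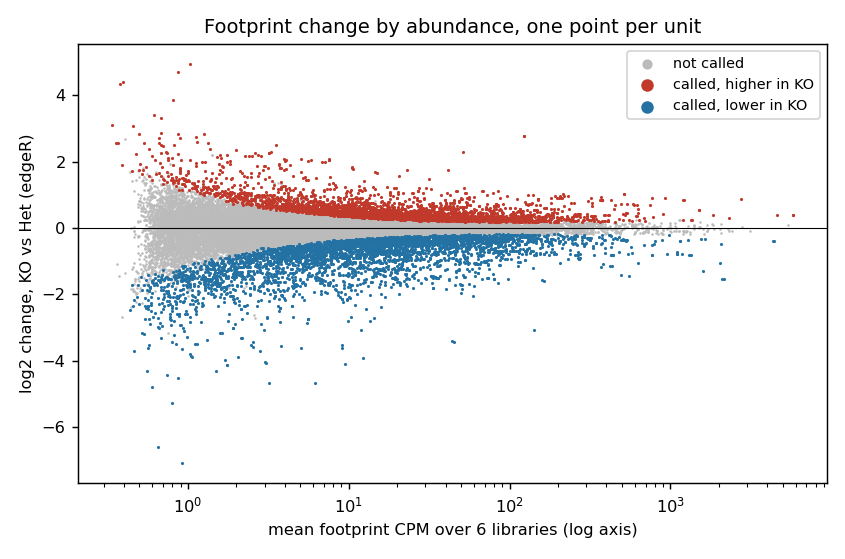
Log2 change in footprints between KO and Het from edgeR (vertical axis) against the mean CPM over 6 ribosome profiling libraries (horizontal, log axis), 1 point per tested unit; called units are red (higher in KO) or blue (lower in KO) and the others grey. Losses reach further from 0 than gains at low and middle abundance, and changes of at least 2 lie mostly at low CPM.

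By abundance, the share of units called rose from the lowest to the highest of 5 equal-sized classes, while the size of change fell. The shares were 11.4%, 15.2%, 22.6%, 31.0% and 38.2%. They leaned on each KO and Het library, most in sparse units: without the higher-numbered Het library they were 3.58%, 7.1%, 10.7%, 17.1% and 25.8%, and the lowest class was at 3.91% or 5.45% without the lower- or higher-numbered KO library and at 5.99% without the lower-numbered Het library. With every library thinned to the smallest total and the filter run again, 27768 units were tested in place of 33221. Among these the lowest class, at 8.25%, stood above the second, at 5.64%, and the order rose from there to 27.1%. The classes were those of the main fit, so each share covers only the units that still passed. The order of the lowest classes is therefore not read as a result. In the main fit the median absolute log2 change went the other way from the called share, at 0.43, 0.27, 0.22, 0.19 and 0.15. So did the median standard error, which was 0.39 in the lowest class and 0.07 in the highest. The power of the test grows with counts, so the rising share describes precision as well as change. The direction differed as well. In the lowest class 219 called units rose and 540 fell, so 71.1% of calls were losses, against 63.0%, 54.7% and 56.6% in the next classes. In the highest class 1285 rose and 1255 fell (49.4% losses).

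The best covered units held large losses too, though fewer than each of the sparser classes. Among 6644 units with a mean CPM of 27.8 or more, the highest class, 127 fell and 23 rose by 1 or more on the log2 scale. In the lowest class, of 6645 units, 519 fell and 195 rose by as much. Over all 33221 units tested, 3.93% fell and 1.15% rose by 1 or more. Isoforms were not joined in these counts. In that class the log2 ratio between a KO and a Het library had an SD of 0.36, against 0.10 within KO and 0.13 within Het. In the lowest class the corresponding SDs were 0.54 to 0.58, 0.34 and 0.44. The difference between genotypes therefore stood further above the spread between replicates in highly occupied units than in sparse ones.

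**Figure D3:**
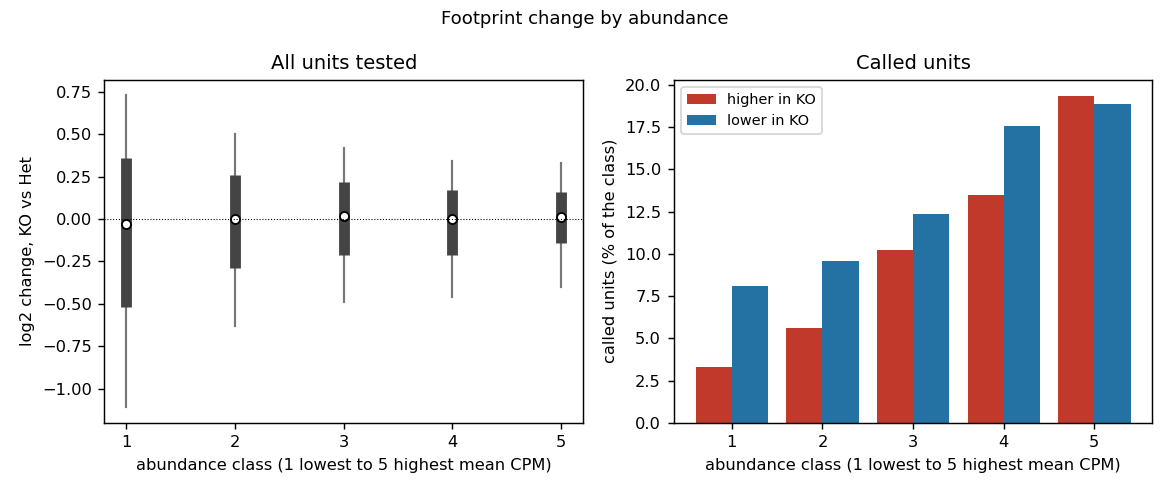
Left, log2 change between KO and Het in 5 equal-sized classes of mean footprint CPM (points are medians, thick bars the middle 50% and thin bars the middle 80% of units). Right, percent of each class called higher (red) or lower (blue) in KO: losses outnumber gains in the lowest class (540 against 219) and the numbers nearly meet in the highest (1255 against 1285).

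Scaling abundance by length gave a flatter order of called shares. In 5 classes of mean CPM per 1000 codons, a measure nearer to ribosome density along a coding region, 19.2%, 19.1%, 20.5%, 26.3% and 33.5% of units were called, from lowest to highest. Losses made up 67.7% of calls in the lowest of these classes and 52.9% in the highest. The median log2 change was -0.07 in the lowest class and 0.01 in the highest.

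By length, the median change stayed near 0 in every class, and the tails differed. In 4163 units of up to 90 codons the median log2 change was 0.04, in 10798 units of 91 to under 250 it was 0.01, and in 8036 units of 250 to under 500 it was -0.01. It was 0.00 in 7000 units of 500 to under 1000, -0.02 in 2649 units of 1000 to under 2000 and 0.02 in 575 units of 2000 codons or more. With upper-quartile scaling every class median was above 0, from 0.02 to 0.07. The lowest 10% of units began at -0.55 in the shortest class and at -1.02 in the longest. Upward, the highest 10% began at 0.58 in the shortest and at 0.50 in the longest.

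The share of units called rose with length, and so did abundance. It was 13.0% in units of up to 90 codons, 18.6%, 26.1%, 29.8% and 34.5% in the next classes, and 39.1% in units of 2000 codons or more. The order held without each library in turn, but the shares moved: without the lower-numbered KO library they were 5.46%, 9.68%, 14.7%, 17.2%, 17.9% and 24.6%, and without the higher-numbered Het library they began at 5.74%, 9.32%, 14.3%, 16.4% and 18.0%. Without the higher-numbered KO library the shortest class was at 7.78%, and without the lower-numbered Het library at 7.18%. With all libraries, median CPM rose along with it, from 2.35 through 5.37, 9.26, 12.1 and 18.5 to 34.5. Within the highest abundance class the order with length was less even: 35.1%, 33.7%, 39.4%, 41.9%, 35.9% and 44.5% of units were called from the shortest to the longest class.

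Under TMM scaling and counted in units, direction by length leaned to losses in every class up to 2000 codons and to gains above it. In units of up to 90 codons 258 rose and 283 fell, in units of 91 to under 250 codons 847 rose and 1159 fell, and in units of 250 to under 500 codons 875 rose and 1223 fell. In units of 500 to under 1000 the counts were 922 and 1165, and in units of 1000 to under 2000 they were 426 and 487. In units of 2000 codons or more 125 rose and 100 fell. In runs of neighbouring called units, gains and losses were nearer to even in every class. They numbered 180 and 191 up to 90 codons, 241 and 247 at 1000 to under 2000, and 68 and 64 at 2000 or more. The classes between had 513 and 613, 566 and 725, and 520 and 628. Among changes of at least 1, losses outnumbered gains in every length class, as over all units (1304 against 383). Such gains and losses numbered 44 and 134 at 1000 to under 2000 codons, and 3 and 43 at 2000 or more.

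**Figure D4:**
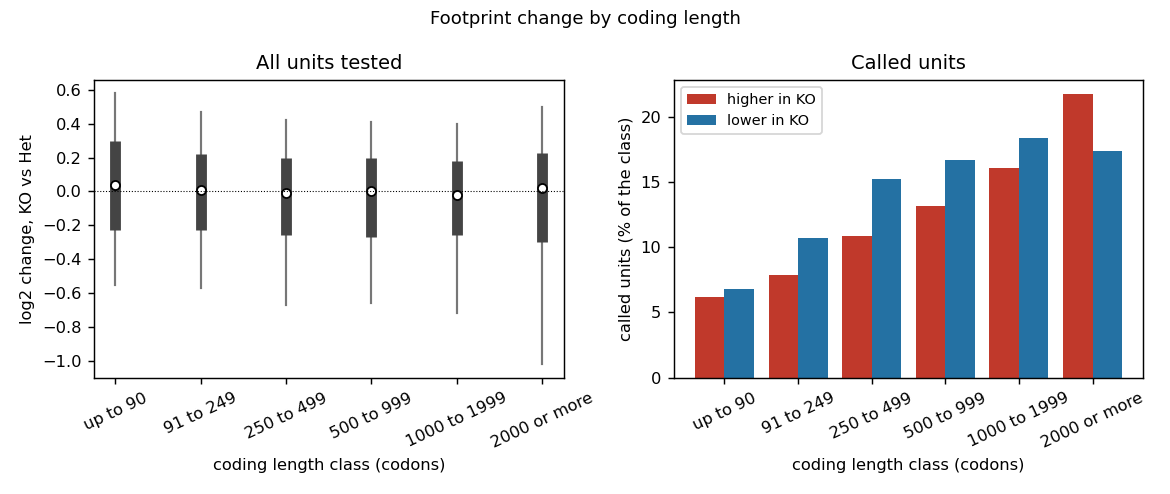
Left, log2 change between KO and Het by coding length class in codons (points are medians, thick bars the middle 50% and thin bars the middle 80% of units). Right, percent of each class called higher (red) or lower (blue) in KO; all medians lie between -0.02 and 0.04, and the lower tail reaches -1.02 in units of 2000 codons or more.

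In the lowest abundance class the median log2 change was lower in long coding regions. The 333 units of 1000 codons or more there had a median of -0.63, and 72 of them fell while 15 rose (26.1% called). The 6312 shorter units had a median of -0.02, with 468 falls and 204 rises (10.6% called, against 23.7% of all units tested). The shorter units were not alike: medians were 0.06 in units of up to 90 codons and 0.01 at 91 to under 250. Units of 250 to under 500 codons had a median of -0.18 (161 falls, 44 rises). Those of 500 to under 1000 had -0.17 (87 falls, 32 rises). The units of 1000 codons or more formed 196 runs of neighbours, whose median was -0.42, and the largest run held 16 units. With only the KO and Het libraries fitted the median was -0.40, and with at least 10 counts in every library it was -0.41. Beside KO against Het, the long units had medians of -0.32 in Het against WT and -0.81 in KO against WT, comparisons that share libraries with it. The footprint counts were small: the median CPM was 0.995.

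In the highest abundance class the calls in long units leaned to gains. Of 1252 units of 1000 codons or more there, 298 rose and 180 fell, with a median of 0.04. Of 5392 shorter units, 987 rose and 1075 fell, with a median of 0.01. In both groups 38.2% of units were called, against 23.7% of all units tested. Neighbouring units were not joined in these counts. Both medians were small: upper-quartile scaling alone moved the median over all units from 0.01 to 0.04.

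The division of footprints between length classes differed by under 1 percentage point between KO and Het. Shares of footprints, here and below, are of counts summed over units. A read shared by isoforms in separate units is counted in each of them. Units of up to 90 codons took 4.38% and 4.48% of footprints in KO, 4.82% and 4.97% in Het, and 5.36% and 5.38% in WT. Units of 1000 to under 2000 codons took 12.5% in both KO libraries, 12.0% and 11.7% in Het, and 12.0% and 11.6% in WT. Units of 2000 codons or more took 6.51% and 6.57% in KO, 6.08% and 5.73% in Het, and 6.13% and 5.77% in WT. The KO libraries lay below both Het libraries in the shortest class and above both in the 2 longest, with differences of the means of -0.467, 0.61 and 0.64 percentage points.

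The classes of 91 to under 250 and 500 to under 1000 codons were lower in KO by -0.435 and -0.371 percentage points, without overlap, and the class of 250 to under 500 codons overlapped. An exact two-sided permutation test of 2 against 2 libraries cannot go below p = 0.333, which each of the 5 classes without overlap reached (0.4 adjusted over 6 classes). A few neighbouring units, picked after their values were seen, made up most of the difference in the shortest class and in the class of 1000 to under 2000 codons.

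The largest shift in the shortest class came from 24 neighbouring units of 57 to 86 codons. Together they took 0.574% and 0.669% of the counts summed over units in KO (0.622% ± 0.067, SD, n = 2). The shares were 0.98% and 1.09% in Het (1.04% ± 0.08) and 1.52% and 1.45% in WT (1.48% ± 0.043). The 3 genotypes did not overlap, and Het lay between WT and KO. All 24 units fell in KO against Het, by log2 changes of -0.98 to -0.44 with a median of -0.80. In Het against WT 15 of them were called, with a median of -0.52, where 0.966% of all units tested were called. In RNA-seq 10 of the 24 could be tested and 3 were called, with a median of -1.70. Of all units tested in both assays, 7.05% were called in RNA-seq. Neighbouring units may count the same reads, so these are not separate calls. Without these 24 units the shortest class differed by -0.0519 percentage points in place of -0.467.

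The gain of the class of 1000 to under 2000 codons rested on 3 neighbouring units of 1774 to 1948 codons, among the most occupied of all. They took 2.03% and 2.02% of footprints in KO, 1.77% and 1.32% in Het, and 1.28% and 1.31% in WT. The Het libraries differed widely here, and the higher-numbered was near WT. All 3 units rose in KO against Het, by 0.38 to 0.39 on the log2 scale. Without them the class differed by 0.13 percentage points in place of 0.61.

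**Figure D5:**
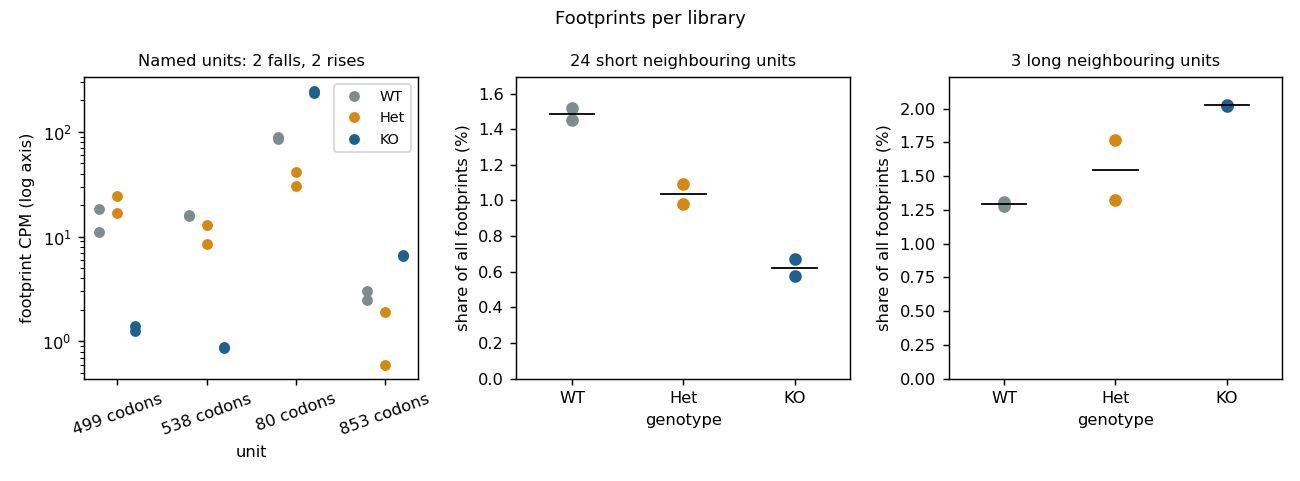
Footprints per library in WT (grey), Het (orange) and KO (blue), 2 libraries each. Left, CPM (log axis) of the 4 units named by ID, given by coding length. Middle, percent of all footprints (counts summed over units) on 24 neighbouring units of 57 to 86 codons. Right, the same on 3 neighbouring units of 1774 to 1948 codons. Lines are means. The short units step down from 1.48% in WT to 0.622% in KO, and the long units reach 2.02% in KO.

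In units of 2000 codons or more, opposite movements were found side by side. A run of 12 units of 3449 to 4682 codons took 0.597% and 0.61% of footprints in KO, 0.345% and 0.365% in Het, and 0.444% and 0.392% in WT. Of these 12 units, picked after their values were seen, 11 were called higher, against 10.4% of all units tested. The median over the run was 0.85, and the KO libraries stood above both other genotypes. Another 3 units of 2572 to 2574 codons took 0.821% and 0.828% in KO, 1.2% and 0.954% in Het, and 0.972% and 0.998% in WT. All 3 fell, by log2 changes of -0.39 to -0.36, and the class differed by 0.891 percentage points without them.

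Losses also reached some of the most occupied units. A unit of 496 codons had 830 and 935 CPM in KO, 2660 and 2440 in Het, and 2690 and 3290 in WT, a log2 change of -1.53 in KO against Het. Het and WT were close to each other, and both KO libraries were far below. A unit of 529 codons, slightly lower in every library, had the same log2 change. Its values ran nearly in proportion to those of the 496-codon unit. It may be an isoform that counts the same reads, which was not tested, so it is not a separate example. A unit of 1491 codons had 774 and 831 CPM in KO, 2040 and 1890 in Het and 1940 and 2100 in WT, and it fell by 1.29 on the log2 scale. Its RNA-seq log2 change was -0.82, and that of the 496-codon unit was -1.86, both called.

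The units named by ID had the largest changes among 3999 units that were called, did not overlap between KO and Het and averaged at least 50 counts over the 4 libraries, with 1 unit taken per set of near-identical neighbours. The largest fall was in ENSMUST00000120541.8, of just under 500 codons. It had 1.4 and 1.27 CPM in KO, 24.6 and 17.0 in Het, and 11.1 and 18.4 in WT. Both KO libraries were far below all others, and Het and WT overlapped. The fall was 15.1-fold in edgeR's fit (log2 -3.91, SE 0.25, adjusted p = 5.41e-09), whereas Het against WT gave 0.62 (adjusted p = 0.154).

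The next largest fall was in ENSMUST00000118504.9, of 538 codons. It had 0.874 and 0.891 CPM in KO, 8.61 and 12.8 in Het, and 15.6 and 16.1 in WT, so the genotypes were ordered without overlap. The fall from Het to KO was 12.3-fold (log2 -3.62, SE 0.23, edgeR adjusted p = 6.99e-09). In Het against WT the log2 change was -0.52, with an adjusted p of 0.145, which did not pass.

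The largest rise was in the short unit ENSMUST00000001051.9, of 80 codons. It had 238 and 247 CPM in KO, 41.4 and 30.3 in Het, and 89.4 and 86.2 in WT, so Het was the lowest genotype and KO the highest. The rise from Het to KO was 6.86-fold (log2 2.78, SE 0.10, edgeR adjusted p = 7.36e-12). In Het against WT it had fallen by 1.32 (adjusted p = 5.43e-06), and KO against WT, 1.46, was smaller than KO against Het.

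The next largest rise was in ENSMUST00000099362.11, of 853 codons, at low abundance. It had 6.55 and 6.62 CPM in KO, 1.89 and 0.598 in Het, and 3.01 and 2.5 in WT. The Het values rest on 18 and 8 counts, and the size of the rise depended on which was kept: the log2 change was 1.8 without the higher-numbered and 3.45 without the lower-numbered Het library. The rise was 5.73-fold (log2 2.52, SE 0.29, edgeR adjusted p = 4.69e-06), while the Het against WT change of -1.32 did not pass (adjusted p = 0.125). The RNA-seq counts of the 4 named units were too few to test.

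The largest falls and rises of the other length classes, under the same conditions, ranged from -2.79 to 2.30. Among falls, a unit of 182 codons had 2.88 and 1.72 CPM in KO, 17.8 and 15.8 in Het and 20.3 and 23.0 in WT (log2 -2.79). A unit of 1595 codons had 1.7 and 2.23 CPM in KO, 11.6 and 14.8 in Het and 14.6 and 14.2 in WT, also a log2 change of -2.79. In RNA-seq it fell by 1.57 on the log2 scale (edgeR adjusted p = 0.000325). In both falls Het lay closer to WT than to KO. The largest falls of the shortest and longest classes were smaller, -1.92 in a unit of 70 codons and -1.65 in a unit of 2252 codons.

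Among rises, a unit of 347 codons had 105 and 102 CPM in KO, 22.6 and 19.8 in Het and 29.7 and 28.2 in WT (log2 2.30). A unit of 3321 codons had 6.95 and 6.3 CPM in KO, 1.68 and 1.87 in Het and 3.89 and 5.22 in WT (log2 1.89). Both had fallen in Het against WT, by 0.47 and 1.25 on the log2 scale. A unit of 193 codons had 5.11 and 5.73 CPM in KO, 0.945 and 1.35 in Het and 1.03 and 0.835 in WT (log2 2.18), so there Het and WT overlapped.

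Some units were called in both Het against WT and KO against Het, and these comparisons share the Het libraries. Het against WT called 2.14% of units that rose in KO against Het and 3.24% of those that fell. Over all units tested it called 0.966%. With shared libraries, these shares are not read as a result. In 39 units Het was below WT and KO above Het, with medians of -0.58 and 0.71, so that KO and WT were close (median 0.08). In 73 units Het was above WT and KO below Het, with medians of 0.59 and -1.13. In 70 units both steps were falls, with medians of -0.64 and -0.81, and in 35 units both were rises, with medians of 0.43 and 0.59.

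RNA-seq gave a second readout for 12158 units tested in both assays, of which 857 (7.05%) were called in KO against Het, 475 (3.91%) higher and 382 (3.14%) lower. The RNA-seq libraries were shallow, so most footprint calls had no RNA test. Of footprint gains, 1628 were tested, and 116 also rose in RNA while 2 fell. The median RNA log2 change of these gains was 0.19. Of footprint losses, 1957 were tested, and 255 also fell in RNA while 82 rose, with a median of -0.20.

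The large footprint changes had larger RNA medians. Of 286 tested units whose footprints fell by at least 1, 100 fell and 17 rose in RNA (40.9% called), and the median RNA log2 change was -0.79. Of 48 tested units whose footprints rose by at least 1, 9 rose in RNA (18.8% called), with a median of 0.47. Footprints and RNA-seq came from organoids with the same numbers, so they are not taken as independent of each other. The numbers alone do not say whether both were taken from the same culture.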

How the data were processed

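The authors deposited, per library, a table without a header of raw counts per transcript, holding a transcript ID, an undefined number taken as coding length (its scale is not given) and a whole-number count. The submitters' processing notes name CASAVA 1.8, cutadapt 3.7, UMI-tools 1.1.2, STAR 2.7.0a and the build mm39, without roles. The counting tool, annotation and use of strand are not given in the sources used here, so overlapping, antisense and near-identical genes are uncertain. Per the labels' protocols, footprint libraries used RNase I, ribosome pelleting, size selection, linker ligation and rRNA depletion.

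Rows with a length above 0 and the same counts in all 12 tables were made 1 unit, and the longest row stands for it. Rows without a length held no counts. The 6 ribosome profiling libraries were fitted together, with genotype as the only term, in edgeR 4.0.16 (R 4.3.3): TMM, filterByExpr, quasi-likelihood F tests, two-sided, Benjamini-Hochberg over all units tested, calls at an adjusted p under 0.05. RNA-seq was fitted likewise. The script was tested on simulated data. Length and abundance classes, at equal numbers of units for abundance, are descriptions, since units are not replicates. Alternatives were other scalings, filters, units, depths and left-out libraries, and DESeq2 1.42.0. Units were named as the largest 2 rises and 2 falls, plus the largest of each length class without ID, among called units without overlap and with a mean of at least 50 counts. The members and lists were chosen with earlier results of these data known. None of the transcript IDs could be paired with a symbol (0 matched), so the planned gene lists and cell type markers were not tested, and no sequence is shown. Near-identical neighbours were rows within 25 rows of each other with at least 24 counts (6 where identical) whose counts matched, by a chi-square statistic in its lower tail or by a log2 ratio that varied over libraries with an SD under 0.15.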

Additional observations from a re-analysis of the deposited data

How the results depend on the processing

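Against 7870 calls (3453 higher, 4417 lower in KO), joining near-identical neighbouring rows gave 4687 (2039 and 2648), thinning every library to the smallest total gave 3905 (1592 and 2313), DESeq2 gave 3056 (1037 and 2019), and a size of at least 1 on the log2 scale left 1687 (383 and 1304). Leaving out 1 library at a time gave 4285 to 8653 calls, 1710 to 3927 higher and 2575 to 4762 lower; a genotype left with 1 library was assumed to vary like the others. Of changes of at least 1, there were 162 gains and 786 losses with at least 10 counts in every library, 213 and 769 with near-identical rows joined, and 192 and 836 with DESeq2. The share of footprints on units of 1000 to under 2000 codons differed by 0.426 to 0.794 percentage points when a library was left out, lowest without the higher-numbered and highest without the lower-numbered Het library. The median of long, sparse units ranged from -0.88 (thinned) to -0.40 (only KO and Het fitted). The split of all calls turned with upper-quartile scaling (4315 higher, 3952 lower), which also turned the medians of units of 250 to under 500 codons (-0.01 to 0.03) and of 1000 to under 2000 codons (-0.02 to 0.02). The share of footprints on units of 250 to under 500 codons, which overlapped between genotypes, differed by -0.16 to 0.206 percentage points when a library was left out. The 12 units named or described by the naming rule kept direction in each of 190 combinations of unit and setting, though sizes moved. They were picked as the largest called changes in these data, so this is no independent support. The rises of 853 and 193 codons could not be tested with at least 10 counts in every library, since Het counts fell below that. The cause of the moved values was not tested, except that thinning by construction leaves fewer counts to test. Of values by class, 87 moved and 186 stayed within their limits. The joining of neighbours was chosen after seeing the data. No paired analysis was possible because KO and Het organoids share no number.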
